A study of Mus musculus with 9 samples.

Results

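Proteasome subunits and ubiquitin-conjugating enzymes were taken as every gene whose symbol in the platform annotation begins with Psma, Psmb, Psmc, Psmd, Psme or Ube2. This gave 70 genes of the 12393 that at least 1 probe set on the array named alone, and each was read from its brightest such probe set over all arrays. By symbol, 18 belonged to the 20S core particle (Psma and Psmb), 21 to the 19S cap (Psmc and Psmd), 4 to the Psme group of activators and 27 to the E2 conjugating enzymes (Ube2). The symbol rule also took in Psmc3ip, a meiotic recombination factor named for binding Psmc3, and Psme3ip1, named for binding Psme3, neither of which is a proteasome subunit. Psmc3ip and the assembly chaperones Psmd5, Psmd9 and Psmd10 were kept in the cap counts and medians below. The brighter 50% of all probe sets was tested, and 64 of the 70 genes were in it. These were 15 core, 21 cap, 4 activator and 24 E2 genes. Psma8, Psmb8, Psmb9, Ube2d2b, Ube2l6 and Ube2t were dimmer and are given as signals. Psme2 and Ube2m were not analysed here.

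By the labels, the RNA came from motor neurons cut by laser from lumbar spinal cord (L1 to L5). The mice were in 3 groups of 3, with the cells of 1 animal on each array. The groups were SMA mice transplanted with cells the labels call NSC, known for this study to be neural stem cells, SMA mice given vehicle and wild-type mice given vehicle. Surgery was at postnatal day 1 in all groups, and the animals were killed at 13 days. In spinal muscular atrophy (SMA) a shortage of the SMN protein leads to death of motor neurons. The labels call the SMA mice transgenic, and for their alleles and strain, the source of the transplanted cells and the sex of the animals the sources used here give nothing. Values are MAS5 signals, a probe set brightness in arbitrary units after the authors' scaling of each array, and differences between groups are on the log2(signal + 16) scale, which understates those of dim genes.

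The proteasome is the main protease for short-lived and misfolded proteins in the cytosol and nucleus. A ubiquitin-activating enzyme (E1) passes ubiquitin to a conjugating enzyme (E2), which works with a ligase (E3) to attach chains to the substrate. The cap then binds the chains, unfolds the protein with a ring of ATPases and feeds it into the core, where 3 of the beta subunits cut it. Post-mitotic neurons rely on this system for protein turnover in axons and synapses, and interferon makes cells swap the 3 cutting subunits for induced ones.

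Several features of the arrays bear on what follows. Of 10 motor neuron markers with a probe set, 1 was bright enough to be tested, with Isl1 at 3.8 to 16.7 and Slc5a7 at 3.0 to 11.8 on the 9 arrays, while Mbp of oligodendrocytes read 7832 to 13350. Oligodendrocyte RNA was thus on every array, and most motor neuron markers were near background. Below, the neurons of a group stand for the RNA on its arrays, whatever cells that RNA came from. Of 11 general neuron markers 9 were bright enough to be tested, and Nefl read 559 to 1458 on the 9 arrays. In such mixed samples fewer cells of a type and less RNA per cell cannot be told apart. Muscle transcripts (12 of 12 listed genes with a probe set) had summed signals of 2617 on SMA 1, 3267 on SMA 2 and 103 to 252 elsewhere. The 18S ribosomal RNA control was brightest on SMA 3 (2765) and wild type 3 (2940), and the remaining arrays read 839 to 1832. Xist was 366 to 740 on transplanted SMA arrays, 601, 879.5 and 47.6 on SMA arrays and 23.5 to 32.9 on wild-type arrays. The Y-linked Eif2s3y read 84.8 on transplanted SMA 3, 108.9 on SMA 3, 49.0 to 75.1 on wild-type arrays and 0.1 to 0.5 on the other 4 arrays. Transplanted SMA 3 thus held both Xist and a Y-linked transcript, although the labels give the cells of 1 animal for each array. Where transplanted neurons are compared, values without that array are given for some genes and counts only. Smn1 read 1.3 to 5.1 on all arrays and so could not check the genotype. The part of these features in the results below was not tested.

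Promoters were compared because a shared response element is part of how this gene group is known to be controlled. When proteasome activity is low, the transcription factor Nfe2l1 raises subunit genes through antioxidant response elements. The letters TGACNNNGC (the core of that element, N being any base) and CCAAT (a common promoter box) were searched on both strands of the 250 bases before each gene's start, in RefSeq windows of build GRCm38.p6. A window was found for 57 of the 70 genes, 68 windows in all. TGACNNNGC was in 8 of the 68 (11.8%), against 3338 of all 32851 windows (10.2%). By class it was in 2 of 15 core windows (13.3%), 3 of 19 cap windows (15.8%) and 3 of 29 E2 windows (10.3%). CCAAT was in 46.7% of core, 31.6% of cap and 20.7% of E2 windows, against 33.8% of all windows. The 4 windows printed here are those of the 2 core genes with the element core, Psmb5 and Psmb6, and of Psmb3 and Ube2f, whose signals differed from wild type in opposite directions in transplanted SMA neurons. Capitals mark the matches: TGACNNNGC in Psmb5 and Psmb6, CCAAT in Psmb3 and Ube2f.
Psmb5 (chr14:54617996-54618245, minus strand): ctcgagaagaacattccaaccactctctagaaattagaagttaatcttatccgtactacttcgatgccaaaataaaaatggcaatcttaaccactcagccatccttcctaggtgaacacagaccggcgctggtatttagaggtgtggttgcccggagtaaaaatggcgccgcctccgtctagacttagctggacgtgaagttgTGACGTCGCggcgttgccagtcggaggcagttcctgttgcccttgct
Psmb6 (chr11:70525107-70525356, plus strand): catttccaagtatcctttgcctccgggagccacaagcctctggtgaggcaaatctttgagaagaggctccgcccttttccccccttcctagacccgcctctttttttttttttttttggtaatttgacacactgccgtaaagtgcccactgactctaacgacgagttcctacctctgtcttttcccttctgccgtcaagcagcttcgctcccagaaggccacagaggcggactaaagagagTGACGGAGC
Psmb3 (chr11:97703184-97703433, plus strand): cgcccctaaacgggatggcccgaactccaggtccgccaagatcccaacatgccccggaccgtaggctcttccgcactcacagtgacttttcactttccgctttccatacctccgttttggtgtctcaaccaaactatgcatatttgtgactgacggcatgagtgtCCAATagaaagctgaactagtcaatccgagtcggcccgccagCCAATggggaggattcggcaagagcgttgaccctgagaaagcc
Ube2f (chr1:91250054-91250303, plus strand): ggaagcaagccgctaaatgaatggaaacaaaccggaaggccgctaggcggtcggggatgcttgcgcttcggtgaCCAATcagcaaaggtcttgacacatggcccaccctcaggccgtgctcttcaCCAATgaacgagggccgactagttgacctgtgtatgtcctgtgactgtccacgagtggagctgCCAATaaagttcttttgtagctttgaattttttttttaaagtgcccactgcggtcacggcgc
The match began 47 bases before the start in Psmb5 and 9 bases before it in Psmb6. Psmb3 held 2 CCAAT boxes and Ube2f 3 at the first of its listed starts. Nfe2l1 itself read 106, 123 and 124.5 in transplanted SMA neurons, 99.3, 82.8 and 99.8 in SMA neurons and 113, 84.4 and 80.8 in wild-type neurons. Its transplanted arrays were all above the SMA arrays, and the difference was 0.28 (unadjusted p = 0.129, adjusted p = 0.933) in limma.

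None of these genes passed the test in any of the 3 comparisons. In SMA neurons against wild-type neurons, 0 of the 64 tested genes passed an adjusted p of 0.05 in limma, against 0.0442% of all tested probe sets. The smallest adjusted p among them was 0.732. At an unadjusted p under 0.05 there were 3, all lower in SMA neurons (Ube2o, Ube2b and Psme3), where 6.04% of all tested probe sets passed, 3.32% of them lower. This count was 0 without wild type 1 (3.86% of tested probe sets) or without wild type 3 (6.15%) and 5 without SMA 3 (8.79%). The 95% interval of the difference lay within 1 log2 unit either way for 62 of the 64 genes, against 88.0% of all tested probe sets, and at the median it reached 0.41 to either side of the difference, against 0.47 over all tested probe sets. The signs leaned to lower values: 43 of the 64 differences were below 0, against 49.0% of all tested probe sets. The median difference was -0.10 for core, -0.09 for cap and -0.03 for E2 genes, and 0.01 over all tested probe sets. Centring the arrays on their medians gave 48 genes below 0 and 59.8% of all tested probe sets, so the distance from the background is smaller there.

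**Figure D1:**
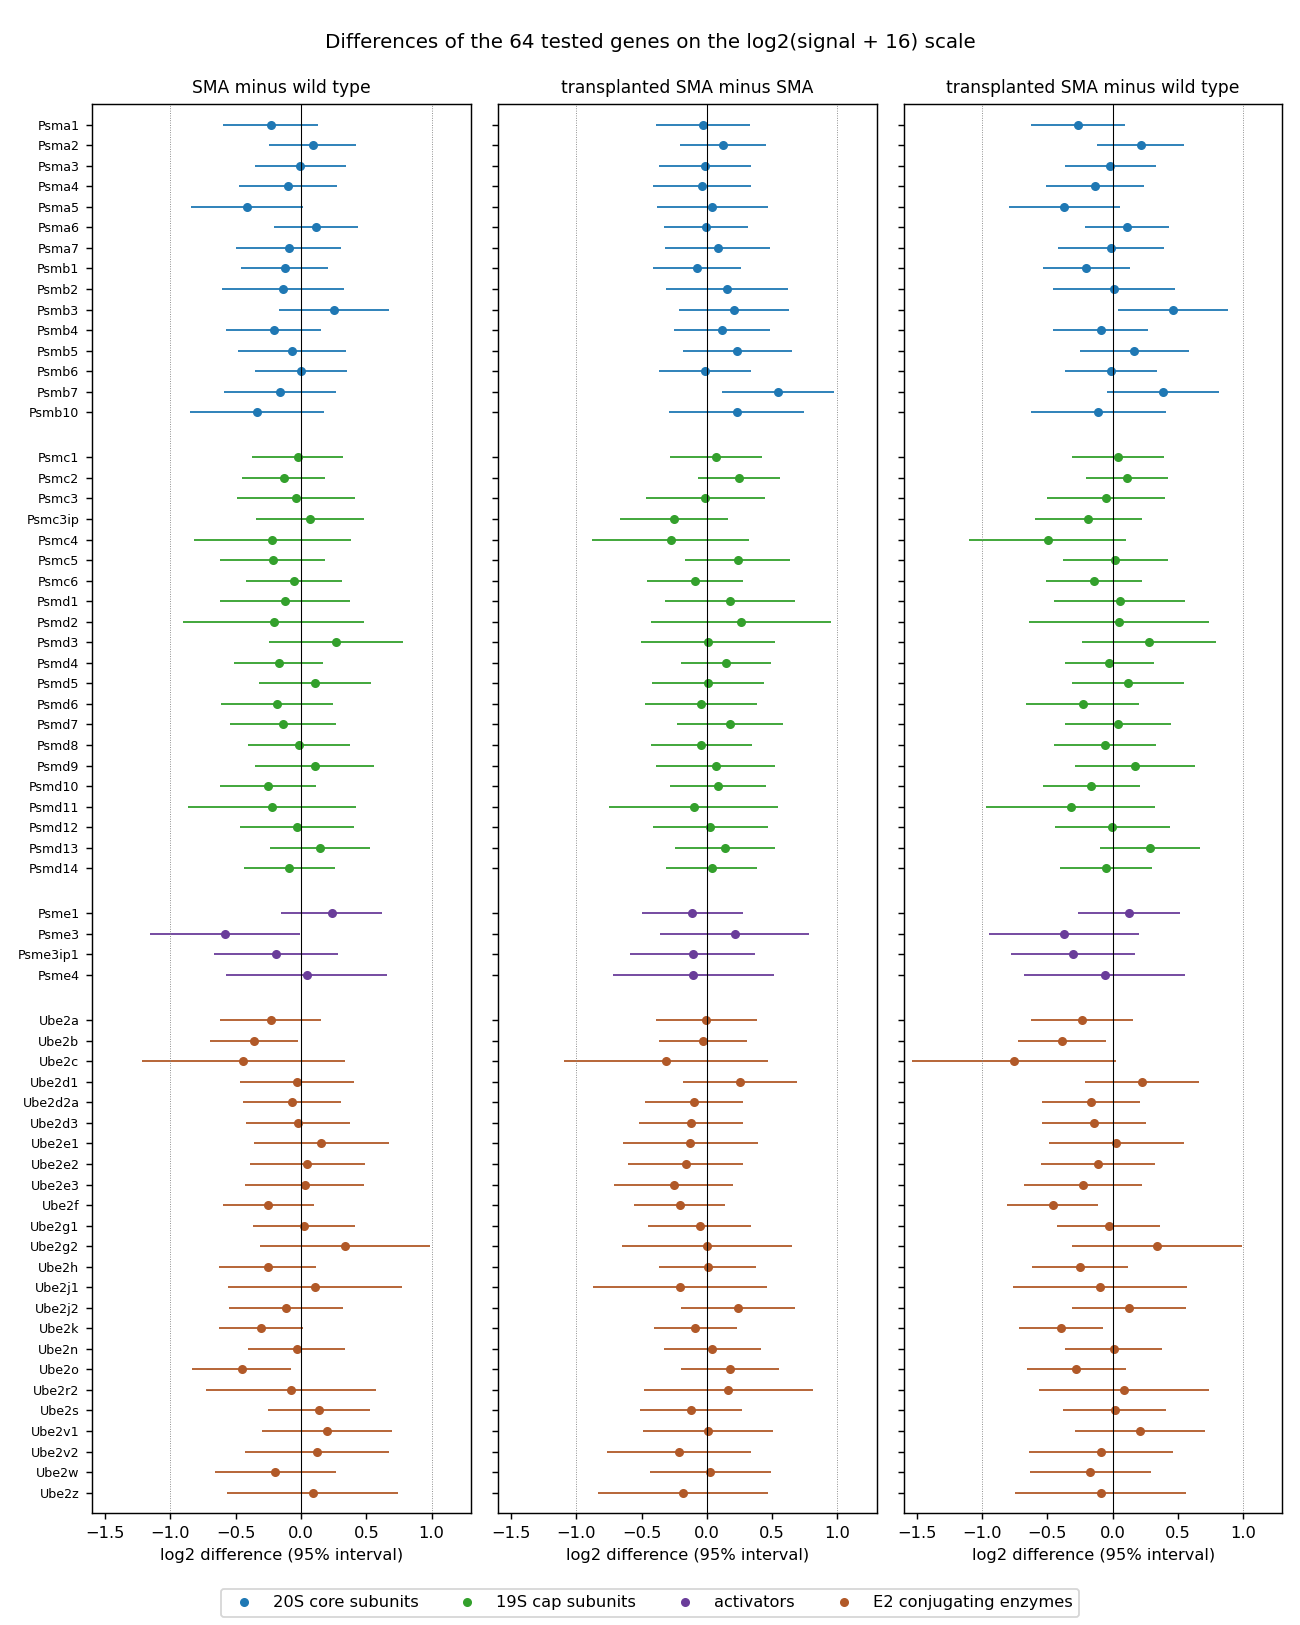
Difference of each of the 64 tested genes on the log2(signal + 16) scale (horizontal axis, point and 95% interval) in the 3 comparisons, coloured by class. Most intervals cross 0, and those that do not include Ube2o, Ube2b and Psme3 in SMA minus wild type, Psmb7 in transplanted SMA minus SMA, and Ube2f, Ube2k, Ube2b and Psmb3 in transplanted SMA minus wild type.

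Of the core genes, the alpha ring subunits form the gate of the chamber and the beta subunits hold the cutting sites. Psma3 read 1203, 1398.5 and 1634 in transplanted SMA neurons, 1259, 1503 and 1491.5 in SMA neurons and 1424, 1306 and 1533 in wild-type neurons. The 3 groups overlapped, and the SMA minus wild type difference was -0.00. The core difference farthest from 0 in that comparison was that of Psma5, an alpha ring subunit, at 585, 708.5 and 849 in SMA neurons and 1012, 885 and 942 in wild-type neurons. All 3 SMA arrays were below all 3 wild-type arrays, and the difference of -0.41 (SE 0.19, 95% interval -0.84 to 0.02, unadjusted p = 0.0573, adjusted p = 0.837) did not pass. Its other tested probe set read -0.12 and an untested dimmer one 0.10. Psma1, another alpha subunit, also had groups that did not overlap, at 287.5, 334 and 305 in SMA neurons against 351, 349.5 and 397 in wild-type neurons. Its difference was -0.23 (unadjusted p = 0.181, adjusted p = 0.945), and 2 dimmer untested probe sets read 0.22 and 0.25. On the positive side, the beta subunit Psmb3 differed by 0.25 (unadjusted p = 0.211, adjusted p = 0.963), with its second probe set at -0.02. Psma6, an alpha subunit, read 1275, 1151 and 1159 in SMA neurons and 1204, 1089 and 1014 in wild-type neurons, which overlapped, a difference of 0.12, and its other tested probe sets read 0.12 and -0.61.

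The cutting subunits come in pairs, since each standard subunit has an interferon-induced replacement. Psmb5, the chymotrypsin-like subunit, read 1021, 777 and 732 in transplanted SMA neurons, 767, 736 and 628 in SMA neurons and 888, 729 and 631 in wild-type neurons. Psmb8, which replaces it, read 45.5, 34.0 and 39.1 in transplanted SMA neurons, 18, 35.3 and 29.9 in SMA neurons and 12.2, 24.5 and 61.6 in wild-type neurons. The Psmb8 spread within wild type, from 12.2 to 61.6, covered every other array. Psmb6, the caspase-like subunit, was nearly level, averaging 947 ± 172 in transplanted SMA neurons, 948 ± 32.7 in SMA neurons and 948 ± 57.5 in wild-type neurons (SD, n = 3 each). Psmb9, its replacement, read 29.3, 26.5 and 20.4 in transplanted SMA neurons, 29.0, 32.7 and 32.0 in SMA neurons and 23.3, 28.1 and 56.1 in wild-type neurons, with wild type 3 the highest array. Psmb10, the replacement for the trypsin-like Psmb7, read 198.5, 104.5 and 103.5 in transplanted SMA neurons, 127, 111 and 90.5 in SMA neurons and 133, 144 and 147 in wild-type neurons. The SMA arrays were all below the wild-type arrays, by a difference of -0.34 (unadjusted p = 0.178, adjusted p = 0.944), and transplanted SMA 1 was the highest of the 9. The interferon and MHC class I list (15 of 17 genes with a probe set) summed to 2103 to 3708 on transplanted SMA arrays, 1869 to 2405 on SMA arrays and 2634 to 6262 on wild-type arrays, and its part in the Psmb8, Psmb9 and Psmb10 values was not tested.

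**Figure D2:**
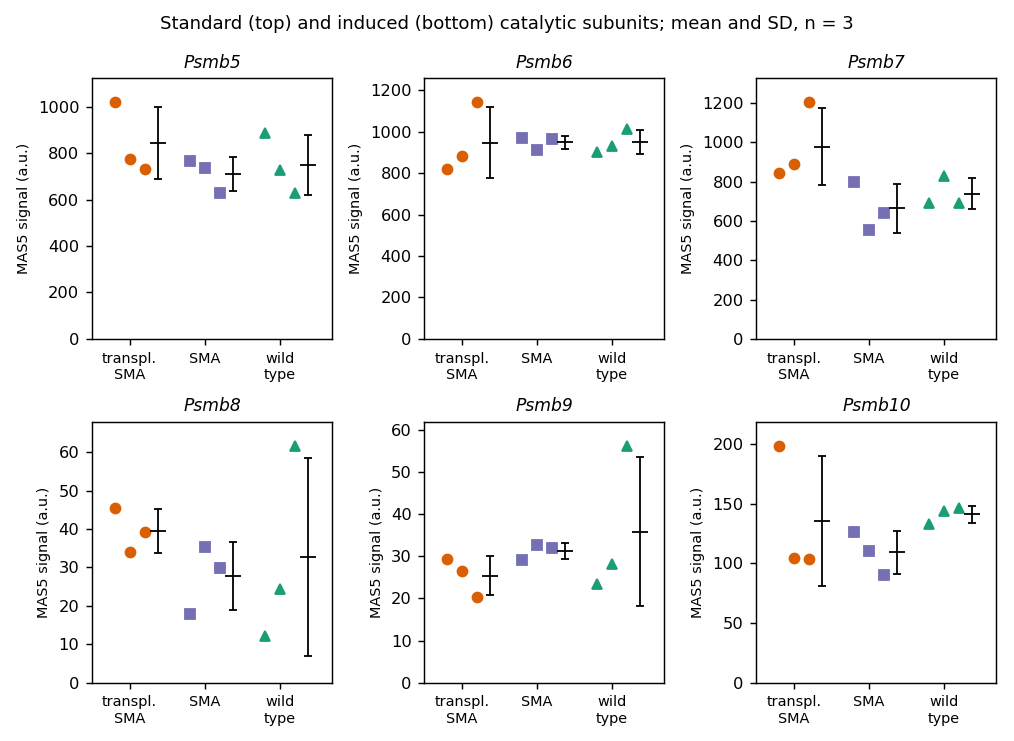
MAS5 signal (vertical axis, arbitrary units, from 0) of the standard cutting subunits (top row) and their interferon-induced replacements (bottom row) on each array, with mean and SD of 3 arrays. Psmb8 and Psmb9 have 1 high wild-type array, wild type 3, and Psmb10 has 1 high transplanted array, transplanted SMA 1.

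Among cap genes, the 6 ATPases (Psmc1 to Psmc6) that drive unfolding all had differences below 0 in SMA minus wild type, from -0.22 to -0.03. The scaffold subunits Psmd1 and Psmd2 and the ubiquitin receptor Psmd4 were also below 0, at -0.12, -0.21 and -0.17. Psmd2 read 905, 958 and 701 in transplanted SMA neurons, 1121, 749 and 414 in SMA neurons and 911, 961 and 624 in wild-type neurons. SMA 1 was the highest and SMA 3 the lowest of all 9 arrays for Psmd2, so the SMA group spanned the other groups. Of the 8 lid subunits 6 were below 0. The lid subunit Psmd3 had the most positive cap difference, 0.27 (unadjusted p = 0.274, adjusted p = 0.986), with signals of 403, 246 and 365 in SMA neurons and 262, 359 and 213.5 in wild-type neurons that overlapped. Psmd10, an assembly chaperone of the base, read 43.7, 53.5 and 51.3 in SMA neurons against 61.4, 62.0 and 61.9 in wild-type neurons. These groups did not overlap, and the difference was -0.25 (unadjusted p = 0.163, adjusted p = 0.938). Psmd10 lies on the X chromosome, as does Ube2a below. Xist was 601, 879.5 and 47.6 on the SMA arrays and 23.5 to 32.9 on the wild-type arrays. The part of this in the Psmd10 and Ube2a values was not tested. The other 2 base chaperones, Psmd5 and Psmd9, were above 0, at 0.11 and 0.10. The lid subunits Psmd11 and Psmd13 were at -0.22 and 0.15, and the 4 tested probe sets of Psmd11 reached from -0.33 to 0.27.

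The cap values turned on 1 library. SMA 3 was the lowest array for 9 of the 21 cap genes and for 22 of the 64 genes in all (34.4%), against 15.4% of all tested probe sets. The cap median deviated by 0.17 from the mean over all 9 arrays on SMA 1, by -0.03 on SMA 2 and by -0.18 on SMA 3. Without SMA 3 the cap median of SMA minus wild type was 0.04, above 0. The neuron list (11 of 11 genes with a probe set) summed to 1589 on SMA 3, the lowest array, and to 1829 to 4424 on the others. The astrocyte list (10 of 10) was highest on SMA 3, at 16767 against 9457 to 15791 on the others, and the oligodendrocyte list (10 of 12) summed to 39668 there, second to transplanted SMA 3 (41892). The actin 3'/5' signal ratio, a sign of RNA quality, was also highest on SMA 3, at 4.32, with wild type 3 next at 3.66 and 2.48 to 3.11 on the others, beside the 18S values given above. The part of these in the cap values was not tested. The core medians were closer together: 0.03, 0.04 and 0.03 on the transplanted SMA arrays, 0.01, -0.01 and -0.11 on the SMA arrays and 0.07, 0.09 and 0.05 on the wild-type arrays. Their spread within groups was also smaller, with a median within-group SD of 0.17 for core, 0.20 for cap, 0.23 for E2 genes and 0.26 for all tested probe sets, which differ in brightness.

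**Figure D3:**
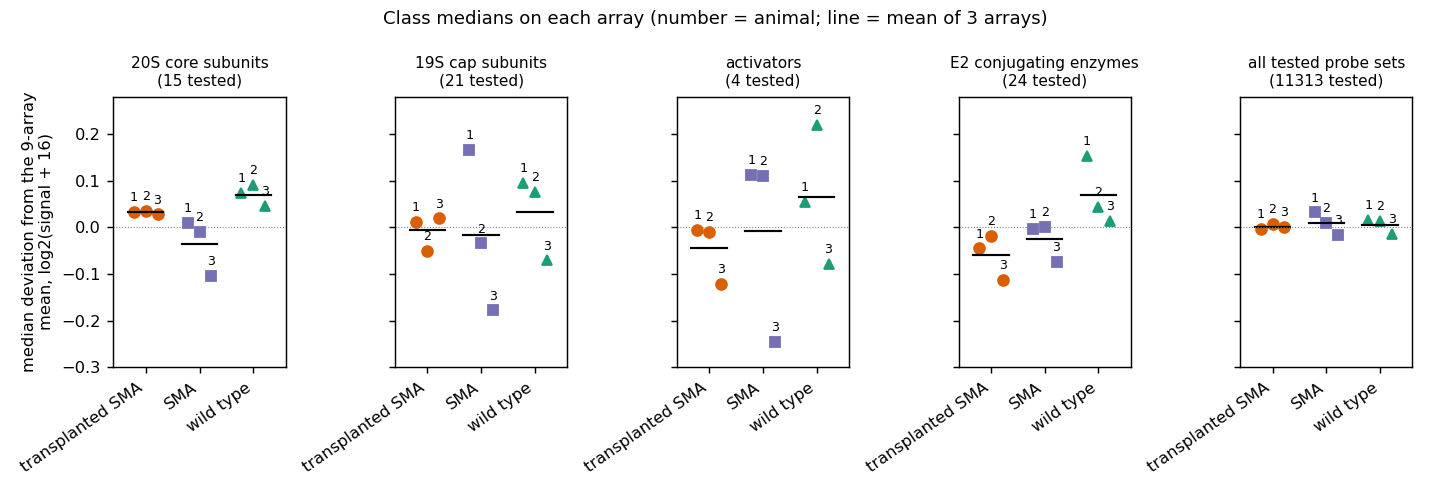
Median deviation of each class from the mean over 9 arrays (vertical axis, log2(signal + 16)) on each array, numbered by animal, with a line at the mean of each group. Core medians lie between -0.11 and 0.09, while cap medians on the SMA arrays reach from 0.17 on SMA 1 to -0.18 on SMA 3.

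The activators open the core without the cap. Psme3, the nuclear activator, read 93.6, 69.1 and 71.2 in transplanted SMA neurons, 36.0, 80.0 and 88.9 in SMA neurons and 124, 88.2 and 105 in wild-type neurons. The SMA minus wild type difference was -0.58 (SE 0.26, 95% interval -1.16 to -0.01, unadjusted p = 0.0463, adjusted p = 0.824), and 2 dimmer probe sets read -0.37 and -0.03. SMA 1 was the lowest array, and SMA 3 overlapped wild type 2. Without SMA 1 the difference was -0.27 (unadjusted p = 0.212, adjusted p = 0.847). Psme1, a chain of the interferon-induced activator, read 249.6, 236.5 and 172 in SMA neurons and 191.5, 173 and 180.2 in wild-type neurons, a difference of 0.24 (unadjusted p = 0.206, adjusted p = 0.963). Psme4, an activator active in the nucleus, read 121, 130.5 and 147 in transplanted SMA neurons, 130.4, 234 and 95.1 in SMA neurons and 139, 178 and 107 in wild-type neurons, with SMA 2 the highest.

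Among the E2 enzymes, Ube2o, an unusual enzyme that joins E2 and E3 activity, read 45.4, 59.8 and 46.3 in transplanted SMA neurons, 50.4, 41.4 and 36.7 in SMA neurons and 66.3, 57.8 and 69.2 in wild-type neurons. The SMA minus wild type difference was -0.46 (SE 0.17, 95% interval -0.83 to -0.08, unadjusted p = 0.0223, adjusted p = 0.732). All SMA arrays were below all wild-type arrays, and transplanted SMA 2 lay within the wild-type range. Ube2b, a RAD6 homologue that acts in DNA damage tolerance and histone ubiquitination, read 142, 147 and 149 in transplanted SMA neurons, 158, 139.9 and 149.9 in SMA neurons and 202, 175 and 213 in wild-type neurons. Its difference in SMA minus wild type was -0.36 (SE 0.15, 95% interval -0.70 to -0.02, unadjusted p = 0.0398, adjusted p = 0.811), and its other probe set read -0.41. Both SMA groups lay below wild type on the probe set used. Ube2a, the other RAD6 homologue, differed by -0.23 (unadjusted p = 0.214, adjusted p = 0.963) with groups that overlapped, and its other tested probe set, slightly dimmer, was on the other side of 0 at 0.17.

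The other E2 enzymes had smaller or less even differences in SMA minus wild type. Ube2d1, Ube2d2a and Ube2d3, which work with many ligases, were at -0.03, -0.07 and -0.02. Ube2n and its partners Ube2v1 and Ube2v2, which build chains linked through lysine 63, were at -0.03, 0.20 and 0.12. The enzymes that serve degradation at the endoplasmic reticulum, Ube2g2, Ube2j1 and Ube2j2, were at 0.34, 0.11 and -0.11. Ube2g2, the most positive of the class, read 249, 186 and 102 in SMA neurons and 137, 176.5 and 90.0 in wild-type neurons, and its groups overlapped. Ube2z, which takes ubiquitin from the E1 enzyme Uba6, read 137, 128 and 96.3 in transplanted SMA neurons, 194, 177 and 73.4 in SMA neurons and 140.2, 139.8 and 107 in wild-type neurons, with SMA 3 the lowest and SMA 1 the highest array. Ube2g1 read 471, 459 and 629.9 in transplanted SMA neurons, 511, 476 and 630.0 in SMA neurons and 537, 512 and 531 in wild-type neurons, a difference of 0.02 between SMA and wild type. The 4 other untested genes were near background on every array: Psma8, known from testis, read 1.3 to 15.3, Ube2d2b 0.6 to 16.3, the ISG15 enzyme Ube2l6 2.4 to 19.2 and Ube2t, which acts in DNA crosslink repair, 4.5 to 19.5.

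Groups that did not overlap were counted as well. In SMA minus wild type 10 of the 64 genes had all SMA arrays below all wild-type arrays, against 6.06% of all tested probe sets, and 0 had them all above, against 5.31%. The 10 were Psma1, Psma5, Psmb10, Psmd10, Psmd4, Ube2b, Ube2f, Ube2h, Ube2k and Ube2o. With SMA 3 left out, 14 genes were below (12.9% of tested probe sets) and 7 above (13.4%). Ube2h, a partner of the CTLH ligase, read 243, 199 and 197 in transplanted SMA neurons, 223, 225 and 187 in SMA neurons and 274, 229 and 264 in wild-type neurons. Ube2o and Ube2h are known for acting in reticulocytes, and the erythroid list (6 of 11 genes with a probe set) summed to 1922 to 2873 on transplanted SMA arrays, 2290.2 to 2769.5 on SMA arrays and 4127 to 6003 on wild-type arrays. Its part in these differences was not tested.

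Transplanted SMA neurons against SMA neurons gave 0 of 64 genes past an adjusted p of 0.05 in limma (0.0% of all tested probe sets) and 1 at an unadjusted p under 0.05, where 4.77% of tested probe sets passed and 2.32% were higher. Differences below 0 numbered 31 of 64, against 49.7% of tested probe sets. The gene past an unadjusted p of 0.05 was Psmb7, the trypsin-like cutting subunit. It read 843, 889 and 1205 in transplanted SMA neurons, 797, 552.5 and 642 in SMA neurons and 693, 831 and 693 in wild-type neurons. The difference was 0.55 (SE 0.19, 95% interval 0.12 to 0.98, unadjusted p = 0.017, adjusted p = 0.933). All transplanted arrays were above the SMA and the wild-type arrays, and no other probe set names Psmb7 alone. Without transplanted SMA 3 the Psmb7 difference was 0.39 (unadjusted p = 0.0772, adjusted p = 0.961), and without SMA 2 it was 0.43 (unadjusted p = 0.0711, adjusted p = 0.999). Without SMA 3, 4 genes had an unadjusted p under 0.05, where 9.39% of tested probe sets did. Without transplanted SMA 3 or without SMA 2 the count was 0, against 5.0% and 2.97% of tested probe sets.

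Psmc2, an ATPase, read 1136, 1152 and 1311 in transplanted SMA neurons and 970.4, 987.5 and 1068 in SMA neurons, a difference of 0.24 (unadjusted p = 0.116, adjusted p = 0.933). The groups did not overlap. In all, 2 genes had every transplanted array above every SMA array, against 4.43% of tested probe sets, and 1, Ube2f, had every one below, against 4.68%. Without SMA 1 these counts were 11 (11.6%) and 4 (10.6%), without SMA 3 they were 4 (11.5%) and 7 (13.7%), and without transplanted SMA 3 they were 6 (8.46%) and 4 (9.79%). Psmc4, another ATPase, had the most negative cap difference, -0.28 (unadjusted p = 0.329, adjusted p = 0.943), at 147, 192 and 255.5 in transplanted SMA neurons and 193, 299.8 and 232 in SMA neurons, which overlapped. Its second probe set read 0.21. Psmb5 was the next most positive core gene after Psmb7, at 0.23, and Psmd2 the most positive cap gene, at 0.26. The most negative core genes were Psmb1 at -0.08 and Psma4 at -0.04. Among E2 enzymes the most positive were Ube2d1 at 0.25 and Ube2j2 at 0.24, and the most negative Ube2c at -0.31 and Ube2e3 at -0.25. Ube2d1 read 54.4, 60.0 and 74.9 in transplanted SMA neurons and 42.3, 41.8 and 69.1 in SMA neurons, which overlapped. The median differences were 0.08 for core, 0.04 for cap, -0.11 for activators (-0.10 without Psme3ip1) and -0.07 for E2 genes, and 0.00 over all tested probe sets. The cap median was -0.08 without SMA 3 and 0.20 without SMA 1 and SMA 2.

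Transplanted SMA neurons against wild-type neurons also gave 0 of 64 past an adjusted p of 0.05 (0.0% of all tested probe sets), with a smallest adjusted p of 0.699 in limma. At an unadjusted p under 0.05 there were 4, against 6.55% of tested probe sets: 1 higher (3.27%) and 3 lower (3.28%). Their number was 1 without transplanted SMA 2 (6.45% of tested probe sets) or wild type 1 (4.59%), 2 without transplanted SMA 1 (4.53%) and 3 without transplanted SMA 3 (7.23%). Differences below 0 numbered 39 of 64, against 51.5% of tested probe sets. The 3 comparisons share arrays, so their values are not independent. Psmb3, a non-cutting beta subunit, read 1510.2, 1297 and 1319 in transplanted SMA neurons, 1426, 1127 and 1041 in SMA neurons and 857.5, 1280.3 and 890.3 in wild-type neurons. Its difference was 0.46 (SE 0.19, 95% interval 0.04 to 0.88, unadjusted p = 0.0349, adjusted p = 0.738), and its second probe set read 0.09. Transplanted arrays were all above wild type, by little in the case of wild type 2.

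The other 3 were E2 enzymes that were lower in transplanted SMA neurons. Ube2f, which passes NEDD8 to cullin 5 ligases, read 161, 125 and 159.7 in transplanted SMA neurons, 174, 175 and 170.1 in SMA neurons and 212, 206 and 209 in wild-type neurons. Its difference was -0.46 (SE 0.16, 95% interval -0.81 to -0.11, unadjusted p = 0.0141, adjusted p = 0.699). All 3 groups were apart, with SMA neurons between the others, and 3 of its 4 probe sets were below 0, the other at 0.24. Ube2k, which builds ubiquitin chains linked through lysine 48, read 525, 534 and 484 in transplanted SMA neurons, 499, 577 and 568 in SMA neurons and 688, 694 and 661 in wild-type neurons, a difference of -0.40 (unadjusted p = 0.0202, adjusted p = 0.699). Its other tested probe set read 0.23. Ube2b differed by -0.39 (unadjusted p = 0.0279, adjusted p = 0.711), with its other probe set at -0.66. Wild type was the highest group for all 3 of these enzymes. Without transplanted SMA 3 the differences were 0.49 for Psmb3 (unadjusted p = 0.0527, adjusted p = 0.691), -0.51 for Ube2f (unadjusted p = 0.0174, adjusted p = 0.585), -0.35 for Ube2k (unadjusted p = 0.0588, adjusted p = 0.691) and -0.40 for Ube2b (unadjusted p = 0.048, adjusted p = 0.687).

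**Figure D4:**
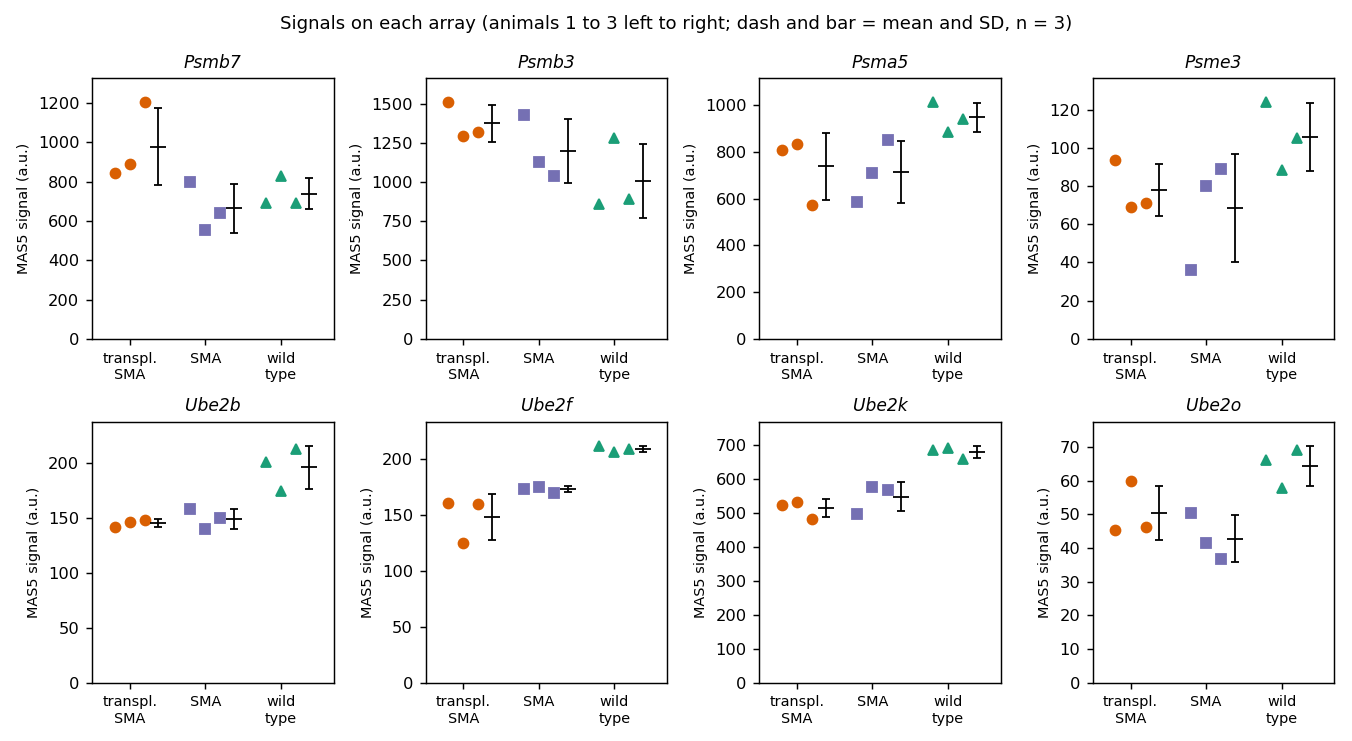
MAS5 signal (vertical axis, arbitrary units, from 0) of 8 named genes on each array, grouped as transplanted SMA, SMA and wild type, with mean and SD of 3 arrays. For Ube2b, Ube2f and Ube2k all wild-type arrays lie above all others, and for Psmb7 all transplanted arrays do.

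Groups without overlap numbered 4 with transplanted SMA above wild type (Psma2, Psmb3, Psmb7 and Psmd13, against 7.11% of tested probe sets) and 7 with it below (Psma1, Psma5, Psmb1, Ube2b, Ube2c, Ube2f and Ube2k, against 7.04%). Without transplanted SMA 3 these counts were 5 (13.1%) and 13 (13.9%). Ube2c, which works with the anaphase-promoting complex in dividing cells, read 66.7, 49.8 and 43.7 in transplanted SMA neurons, 59.6, 150.1 and 33.7 in SMA neurons and 106, 87.4 and 108 in wild-type neurons. The cell division list (10 of 12 genes with a probe set) summed to 662 to 841 on transplanted SMA arrays, 393 to 1332 on SMA arrays and 660.3 to 827 on wild-type arrays. Its highest value was on SMA 2, where Ube2c was also highest, and its part was not tested. The median differences were -0.01 for core, 0.00 for cap, -0.18 for activators and -0.11 for E2 genes, against -0.01 over all tested probe sets. Without Psme3ip1, which is not a proteasome subunit, the median of the 3 activators was -0.06.

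Different probe sets of a gene often disagreed at this scale of difference. Of the 22 genes with several tested probe sets, all probe sets had the same sign in 9 when SMA was set against wild type, in 8 when transplanted SMA was set against SMA, and in 9 when it was set against wild type. Ube2b was among those that did in all 3 comparisons, and Ube2f and Ube2k in none.

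The rest of the pathway was read from lists of gene symbols, some of which are older names of a gene also listed under its current one. Of the activating enzymes 4 of 11 listed were tested, of the assembly and proteasome-bound factors 21 of 28, and of the ligases and deubiquitinating enzymes 25 of 36, and 0 passed an adjusted p of 0.05 in any comparison by limma. At an unadjusted p under 0.05 there was 1 of these 50 genes in SMA minus wild type (Nsfl1c), where 6.04% of tested probe sets passed, 2 in transplanted SMA minus SMA (Uba3 and Usp14), where 4.77% did, and 5 in the comparison of transplanted SMA with wild type (Usp14, Rad23b, Nsfl1c, Cul2 and Nedd4), where 6.55% did. As shares of 50 genes, the first and second counts lie under their backgrounds. Usp14, a deubiquitinating enzyme on the cap, read 160.1, 127.5 and 156 in transplanted SMA neurons, 103, 111 and 111 in SMA neurons and 101, 78.5 and 95.8 in wild-type neurons. The transplanted arrays were all the highest, by 0.39 (unadjusted p = 0.0356, adjusted p = 0.933) over SMA and 0.61 (unadjusted p = 0.00364, adjusted p = 0.523) over wild type. Nsfl1c, a cofactor of the Vcp unfoldase, read 223, 326 and 266 in transplanted SMA neurons, 229, 303 and 260.4 in SMA neurons and 558, 384.5 and 406 in wild-type neurons. Wild type was the highest group without overlap, and SMA minus wild type was -0.72 (unadjusted p = 0.00491, adjusted p = 0.568). Uba3, the catalytic chain of the NEDD8 activating enzyme that charges Ube2f, differed by 0.53 (unadjusted p = 0.0384, adjusted p = 0.933) in transplanted SMA minus SMA, with groups that overlapped. Nae1, also on the activating enzyme list, went the other way in limma, by -0.18 (unadjusted p = 0.251, adjusted p = 0.933). Its transplanted arrays were all below its SMA arrays. In transplanted SMA minus wild type, Rad23b, which shuttles ubiquitinated proteins to the cap, differed by 0.47 (unadjusted p = 0.0434, adjusted p = 0.754), Cul2, a ligase scaffold, by -0.47 (unadjusted p = 0.0265, adjusted p = 0.711), and the ligase Nedd4 by -0.70 (unadjusted p = 0.0328, adjusted p = 0.719).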

How the data were processed

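As named in the submitters' processing notes, the authors deposited 1 MAS5 signal per probe set, a linear intensity in arbitrary units that sets each probe against its mismatch partner. The 2% trimmed mean was the same on all arrays, the MAS5 version is unstated, and detection calls were not used here. RNA was amplified in 2 rounds, per the labels' protocols, which favours transcript 3' ends. The array number, 3 per group, limits the precision. Of 22690 probe sets, 64 controls were left out, and 0 value columns were left unused.

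Signals were transformed as log2(signal + 16). The brighter 50% of probe sets (11313, naming 7254 genes alone) was fitted with limma 3.58.1 in R 4.3.3 (lmFit, eBayes with trend), all 3 groups in 1 model with 6 residual degrees of freedom. Tests were two-sided, with Benjamini-Hochberg adjustment over all tested probe sets and a threshold of 0.05. The fit was tested on simulated arrays with independent noise and added changes of 1 or 2 log2 units. The differences of the genes here were smaller, so that test does not cover them. Classes were summarised by counts and medians with no test. Named genes were those with groups apart and an unadjusted p under 0.05, the 2 most positive and 2 most negative of each class, the catalytic pairs, the activators, partner-specific E2 enzymes, the 2 brightest of each class, and up to 3 pathway genes a list. Psma1, Psmd1, Psmd4, several E2 enzymes, Nfe2l1 and the genes of small groups were added after their values were seen. Members and lists were chosen with earlier results of these data known. Alternatives were other scalings, pseudocounts, filters, eBayes settings, array weights, probe set rules and arrays left out.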

Additional observations from a re-analysis of the deposited data

How the results depend on the processing

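Under all 24 settings per comparison, 0 of the genes passed an adjusted p of 0.05 in limma, and the counts at an unadjusted p under 0.05 were 0 to 5 for SMA minus wild type, 0 to 4 for transplanted SMA minus SMA and 1 to 6 for transplanted SMA minus wild type. Leaving out 1 array at a time gave core medians of -0.16 to -0.034, 0.032 to 0.10 and -0.043 to 0.023 in these 3 comparisons, cap medians of -0.11 to 0.040, -0.079 to 0.13 and -0.065 to 0.0086 and E2 medians of -0.12 to -0.014, -0.084 to 0.0024 and -0.19 to -0.052. Centring arrays on their medians moved the core median to -0.16 in SMA minus wild type and -0.093 in transplanted SMA minus wild type, the cap median to -0.082 in the last, and the E2 medians to -0.093 and -0.18 in those comparisons. Without SMA 1 and SMA 2 (chosen after seeing the data) the SMA minus wild type medians were -0.19 for core and -0.19 for E2 genes, and the cap median of transplanted SMA minus SMA was 0.20. Without wild type 3 and SMA 3 (also chosen after seeing the data) the core medians were 0.037 in transplanted SMA minus SMA and 0.018 in transplanted SMA minus wild type. The core median of the last was 0.0115 after quantile normalisation and 0.038 without probe sets that share probes, and its E2 median was -0.031 when a gene's probe sets were averaged. With that average Ube2k turned to 0.049 in transplanted SMA minus wild type, since its other probe sets were higher there. Over all tested probe sets at an unadjusted p under 0.05, 307 were higher and 376 lower in SMA minus wild type, against 203 and 554 after median centring, 262 and 278 against 206 and 320 in transplanted SMA minus SMA, and 370 and 371 against 220 and 613 in transplanted SMA minus wild type. The causes of the other moves were not tested. The labels do not say whether the sample numbers pair the arrays. To look at this, each group's mean was first taken away from every tested probe set, and what remained was correlated between arrays of different groups. These deviations correlated at -0.08 to 0.45 for same-numbered arrays, highest for wild type 3 with SMA 3. For differently numbered arrays they correlated at -0.47 to 0.33. Whether same-numbered arrays share a batch was not tested. With the sample number as a block 0 genes passed in any comparison and the core median of SMA minus wild type was -0.10.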
